A study of Arabidopsis thaliana with 104 samples.

Results

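The genes described here are 58 Arabidopsis thaliana genes of the cell cycle and of DNA replication. They were taken by locus identifier from a count table of 27206 loci. They fall into 9 classes: 8 B-type, 6 A-type and 7 D-type cyclins, 5 cyclin-dependent kinases (CDKs), 6 CDK inhibitors, 5 genes of mitosis and cytokinesis, 4 activators of the anaphase-promoting complex (APC), 12 DNA replication genes and 5 transcription factors. Reads were counted in RNA of whole seedlings of 3 genotypes: the double mutant phr1phl1, the single mutant phr1, and the wild type Col-0. PHR1 and PHL1 are related MYB-type transcription factors that switch on the phosphate starvation response, and the labels give no allele. Seedlings germinated on 1 mM inorganic phosphate (Pi) with 0.5% sucrose for 7 days, a step that all groups shared, and then grew for 12 days without sucrose on 50 µM Pi (low Pi) or 625 µM Pi (high Pi), either with a synthetic community of bacteria (SynCom) or without bacteria. The 12 groups hold 104 libraries from experiments A to E, with 2 libraries per group and experiment. Col-0 and phr1 were present in all 5 experiments (n = 10 per group), and phr1phl1 in experiments C, D and E (n = 6 per group).

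A plant cell copies its DNA in S phase and divides in M phase, and cyclin-bound kinases time both steps. D-type cyclins act early in the cycle and, through the retinoblastoma protein, release E2F transcription factors, whose targets include the MCM helicase subunits and other replication genes. B-type cyclins, B-type CDKs and the cytokinesis genes are transcribed around mitosis, under MYB3R factors. In seedlings most of this expression comes from the root and shoot meristems and from young leaves and lateral root primordia. RNA of whole seedlings does not separate those sites, and in such bulk samples fewer cells of a type and less RNA per cell cannot be told apart.

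Libraries held 955174 to 9550846 counts, with a median of 4335782, and 4 libraries stood apart by low depth or by wide deviation from their group. The only one of the 4 that enters the Pi comparison with SynCom in Col-0 is library D2 of Col-0 at low Pi (library 2 of experiment D). PHR1 itself was lower in both mutants at low Pi with SynCom (log2 fold change against Col-0 -0.94 in phr1phl1 and -0.72 in phr1), while counts over PHL1 were higher in phr1phl1 (2.72). The position of the lesions is not given, so neither level checks the label. The starvation markers IPS1 and SPX1 had a median log2 fold change between low and high Pi with SynCom of 2.34 in phr1phl1, 3.21 in phr1 and 8.09 in Col-0. At high Pi with SynCom, IPS1 was already higher than in Col-0 in phr1phl1 (4.54) and phr1 (4.28). SPX1 was not called there (0.36 and -0.57). The fold changes of IPS1 thus start from unequal levels and do not compare its low-Pi levels between genotypes.

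Promoter sequences were read for all 58 genes from TAIR10.1 with its own annotation, over the 250 bases before the annotated start, on both strands. AACGG, the core of the mitosis-specific activator element bound by MYB3R factors, was present in 21 of the 58 promoters (36.2%), against 20.6% of 27444 promoters of protein-coding genes. At least 2 copies stood in 20.7% of the 58, against 3.62% of all. The core was found in 6 of 8 B-type cyclins and in 5 of 5 genes of mitosis and cytokinesis. The E2F words TTTCCCGC and TTTGGCGC stood in 7 of the 58 (12.1%), against 0.958% of all promoters, and 5 of these 7 were the helicase subunit genes MCM2 to MCM6. No promoter of the 58 held both kinds of word. The windows below are shown because they hold the words in question, and because CYCB1 and CYCB2 genes that share a word were not called alike in the comparisons that follow. They give the last 120 bases before the start of 4 B-type cyclins, with AACGG or its reverse complement CCGTT in capitals, and of 4 helicase subunits, with the E2F words or their reverse complements in capitals.
CYCB1;2 (chr5:1861704-1861823, minus strand): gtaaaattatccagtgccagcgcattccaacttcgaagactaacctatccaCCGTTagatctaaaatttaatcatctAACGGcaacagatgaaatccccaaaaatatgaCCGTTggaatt
CYCB1;3 (chr3:3627274-3627393, minus strand): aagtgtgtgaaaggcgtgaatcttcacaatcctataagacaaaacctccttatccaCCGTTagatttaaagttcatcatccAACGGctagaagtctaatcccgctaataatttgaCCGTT
CYCB2;1 (chr2:7663935-7664054, plus strand): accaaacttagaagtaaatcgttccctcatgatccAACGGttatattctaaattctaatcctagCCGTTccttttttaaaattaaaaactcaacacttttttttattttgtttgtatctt
CYCB2;3 (chr1:7137829-7137948, minus strand): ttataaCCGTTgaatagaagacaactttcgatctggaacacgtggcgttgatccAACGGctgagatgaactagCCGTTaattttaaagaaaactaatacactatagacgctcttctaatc
MCM2 (chr1:16970094-16970213, plus strand): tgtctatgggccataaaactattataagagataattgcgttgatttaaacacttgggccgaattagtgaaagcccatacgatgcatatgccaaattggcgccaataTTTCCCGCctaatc
MCM4 (chr2:7130730-7130849, minus strand): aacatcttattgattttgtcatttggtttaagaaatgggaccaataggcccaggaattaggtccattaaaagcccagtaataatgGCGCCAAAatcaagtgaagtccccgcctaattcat
MCM5 (chr2:3527501-3527620, minus strand): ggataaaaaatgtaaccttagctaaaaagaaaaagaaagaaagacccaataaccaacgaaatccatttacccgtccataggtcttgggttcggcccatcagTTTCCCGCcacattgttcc
MCM6 (chr5:18010668-18010787, minus strand): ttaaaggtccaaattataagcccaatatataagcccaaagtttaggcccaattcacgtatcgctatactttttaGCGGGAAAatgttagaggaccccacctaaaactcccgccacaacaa

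After a filter on low counts 55 of the 58 genes were tested. CYCA2;1 (AT5G25380), SMR5 (AT1G07500) and SMR7 (AT3G27630) were removed, and their levels are given below without a test. Levels are counts per 1000000 counts of a library (CPM), and each set of 3 CPM values is the lowest, the median and the highest library of a group. Per kilobase of exon, the genes with the highest median in Col-0 at high Pi with SynCom were CYCD3;2 (40.7 CPM per kb), CDKA;1 (40.7), the inhibitor gene SIM (35.2) and SMR1 (29.3), and the lowest was CYCA2;1 (0.186). In the same group the B-type cyclins had medians between 1.54 (CYCB1;3) and 5.40 CPM per kb (CYCB2;3). The 4 most abundant genes per kilobase are thus an early D-type cyclin, the CDK that acts throughout the cycle and 2 CDK inhibitors. A gene on the opposite strand overlaps SIM over 338 bases (exon length 792) and SMR1 over 375 (exon length 826). The libraries did not mark the strand, so the per-kilobase levels of these 2 inhibitors are uncertain.

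In Col-0 seedlings with SynCom, 35 of the 55 genes were higher and 3 were lower at low Pi than at high Pi. In the same comparison 27.2% of all 18926 genes tested were called higher and 22.2% lower. The calls come from edgeR's quasi-likelihood test with Benjamini-Hochberg adjustment at 0.05, as do all adjusted p-values below unless another tool is named. The median log2 fold change of the 55 genes was 0.59, against 0.05 over all genes tested. The class with the largest median was DNA replication (0.98), followed by mitosis and cytokinesis (0.65), the CDKs (0.63) and the transcription factors (0.61). The median was smallest among the CDK inhibitors (0.19).

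**Figure D1:**
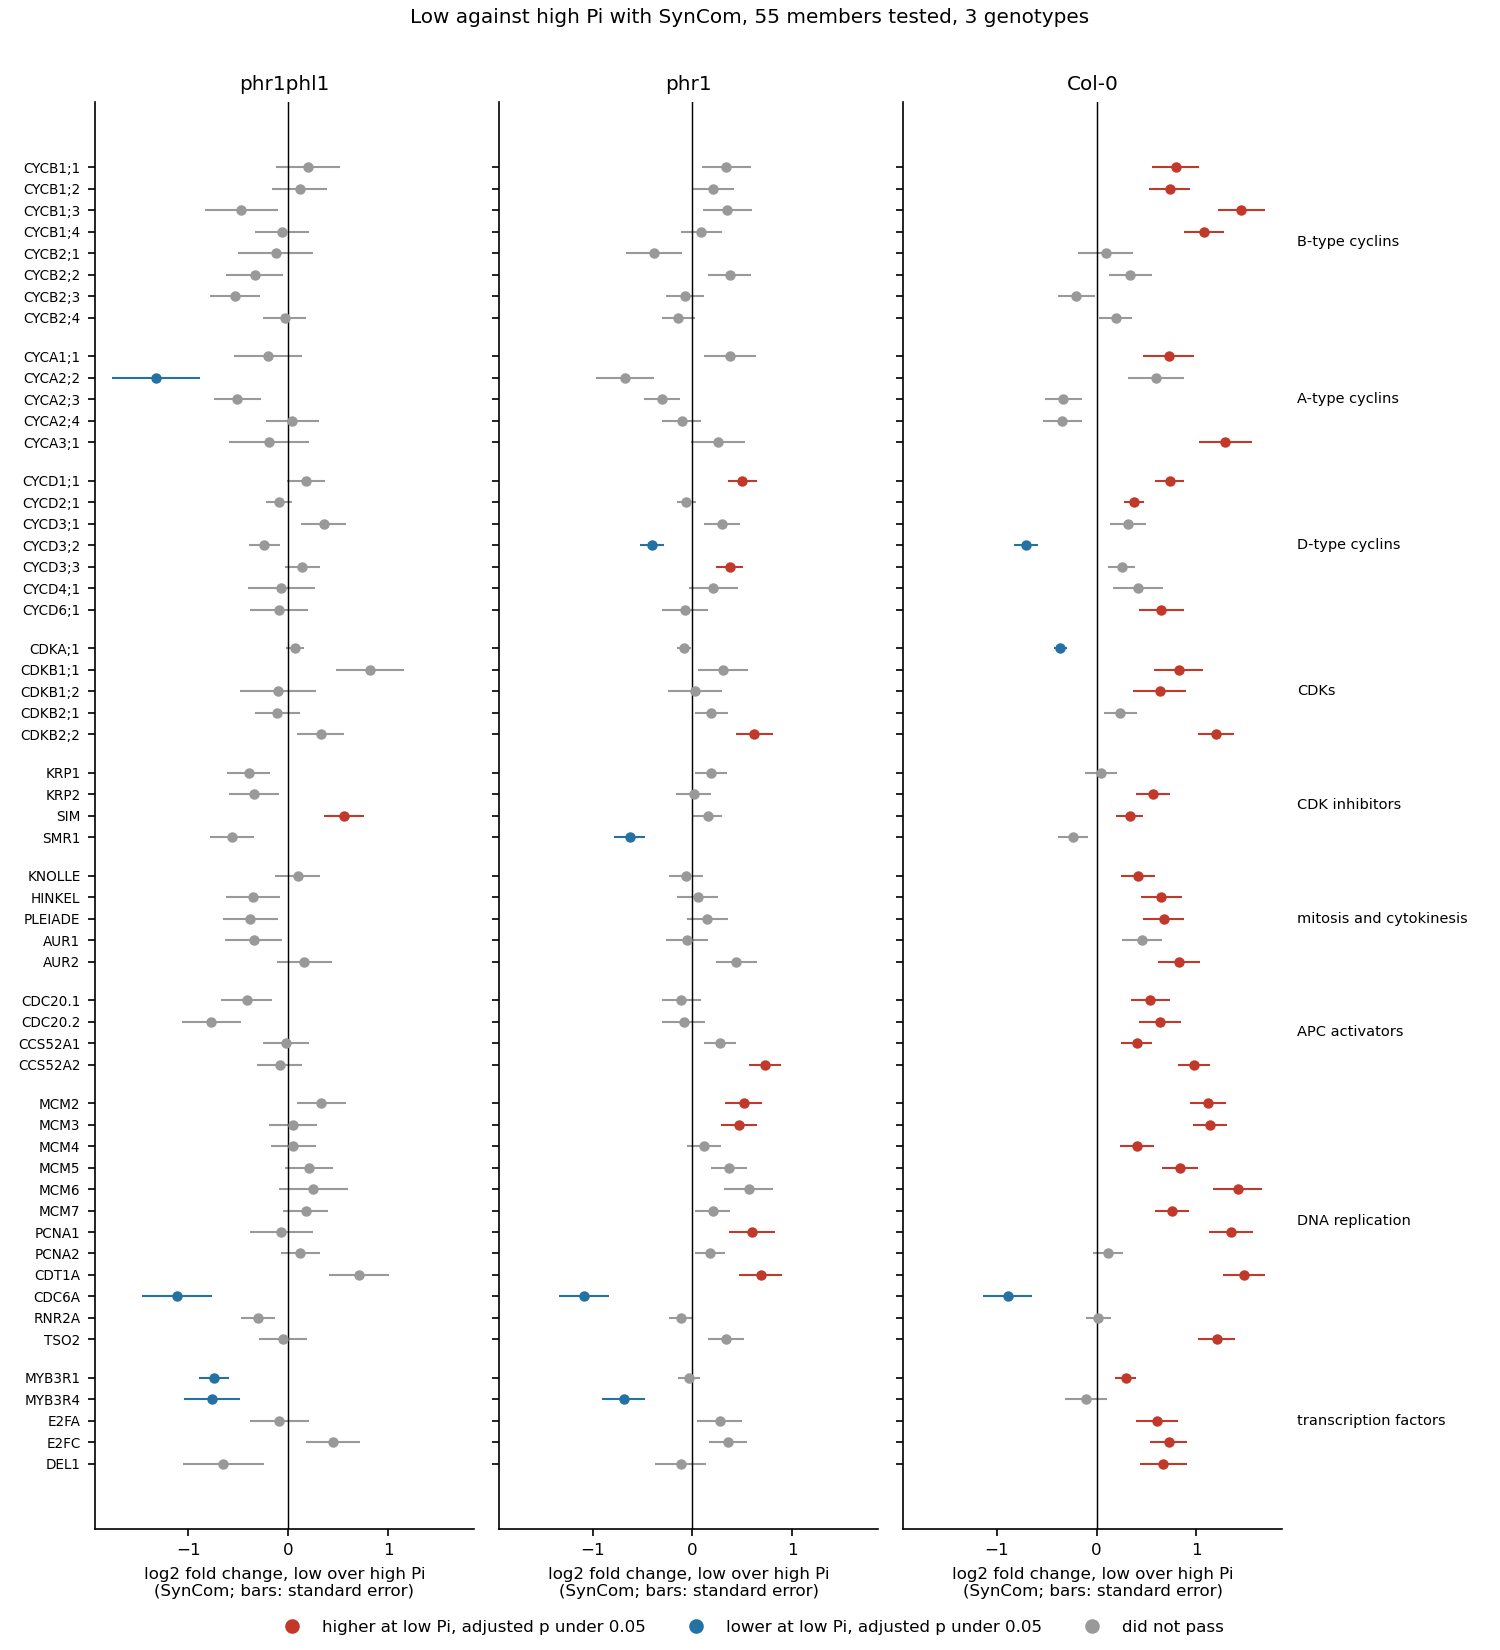
Log2 fold change, low over high Pi with SynCom, of each of the 55 tested genes, grouped by class (vertical axis), in phr1phl1, phr1 and Col-0. Bars are the standard error, and red (higher) and blue (lower) points passed an adjusted p of 0.05. In phr1phl1 1 gene passed as higher and 4 as lower, in phr1 8 and 4, and in Col-0 35 and 3. There were fewer libraries and experiments for phr1phl1, so a change of equal size is less readily called there.

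Among the D-type cyclins, which carry nutrient and hormone signals into the cycle, 3 of 7 rose and 1 fell at low Pi in Col-0 with SynCom. CYCD1;1 (AT1G70210) had 16.3, 32.2 and 69.1 CPM at low Pi, against 9.88, 22.0 and 34.5 CPM at high Pi, a log2 fold change of 0.73 ± 0.15 (SE, adjusted p = 1.69e-05). CYCD2;1 (AT2G22490) rose by 0.38 ± 0.10 (adjusted p = 0.000691) and CYCD6;1 (AT4G03270), known from formative divisions of the root ground tissue, by 0.65 ± 0.23 (adjusted p = 0.0135). CYCD3;2 (AT5G67260), one of the CYCD3 genes that keep leaf cells dividing, went the other way. It had 31.2, 44.0 and 80.6 CPM at low Pi, against 45.2, 60.6 and 168 CPM at high Pi, and fell by 0.71 ± 0.12 on the log2 scale (adjusted p = 1.49e-06). Its ranges overlapped, but the sign was negative in each of the 5 experiments. Its relatives CYCD3;1 (0.31 ± 0.18) and CYCD3;3 (0.25 ± 0.13) did not pass the test.

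A-type cyclins act from S phase to M phase, and 2 of the 5 tested rose. CYCA3;1 (AT5G43080), an S-phase cyclin, had 1.87, 3.37 and 12.4 CPM at low Pi, against 0.597, 1.37 and 4.60 CPM at high Pi (1.29 ± 0.26, adjusted p = 2.60e-05). Every low-Pi library stood above the high-Pi median, and 12.4 CPM is library D2. CYCA1;1 (AT1G44110), a mitotic A-type cyclin, rose by 0.72 ± 0.26 (adjusted p = 0.0159). Of the CYCA2 genes, CYCA2;2 was at 0.59 ± 0.28, CYCA2;3 at -0.33 ± 0.18 and CYCA2;4 at -0.34 ± 0.20, none past the threshold. The untested CYCA2;1 had 0, 0.566 and 3.23 CPM at low Pi (34 counts in all 10 libraries), against 0, 0.359 and 1.21 CPM (18 counts) at high Pi.

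The B-type cyclins split by subgroup: all 4 CYCB1 genes rose, and none of the 4 CYCB2 genes passed the test. CYCB1;3 (AT3G11520) had 2.37, 6.68 and 20.7 CPM at low Pi, against 0.356, 2.55 and 7.01 CPM at high Pi (1.45 ± 0.24, adjusted p = 2.77e-07). CYCB1;4 (AT2G26760) had 4.15, 10.4 and 34.1 CPM at low Pi, against 2.72, 6.60 and 9.34 CPM at high Pi (1.07 ± 0.20, adjusted p = 6.28e-06). The ranges of the 2 groups overlapped for both genes, and within experiments CYCB1;3 was higher at low Pi in all 5 and CYCB1;4 in 4 of 5. CYCB1;3 rests on few counts, 16 to 48 per library at low Pi and 1 to 16 at high Pi. CYCB1;1 (AT4G37490), widely used as a reporter of cells in G2 and M, rose by 0.79 ± 0.24 (adjusted p = 0.00355), and CYCB1;2 (AT5G06150) by 0.73 ± 0.21 (adjusted p = 0.0021). The CYCB2 genes ran between -0.20 ± 0.19 (CYCB2;3, AT1G20610) and 0.34 ± 0.21 (CYCB2;2, AT4G35620), with CYCB2;1 (AT2G17620) at 0.09 ± 0.28 and CYCB2;4 (AT1G76310) at 0.19 ± 0.17. The difference between the subgroups was not tested. The promoter word AACGG does not separate them, since it stands in CYCB1;1, CYCB1;2 and CYCB1;3 and in CYCB2;1, CYCB2;2 and CYCB2;3, and in neither CYCB1;4 nor CYCB2;4.

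The CDKs moved in opposite directions. CDKA;1 (AT3G48750), the single Arabidopsis CDK with the PSTAIRE motif, which acts throughout the cycle, had 39.9, 46.8 and 56.2 CPM at low Pi, against 54.5, 60.9 and 69.4 CPM at high Pi. It fell by 0.36 ± 0.07 on the log2 scale (adjusted p = 6.86e-06), with a negative sign in all 5 experiments, and its 2 groups shared only a narrow stretch of their ranges. The plant-specific B-type CDKs are transcribed from S phase to M phase, and 3 of 4 rose. CDKB2;2 (AT1G20930) had 7.56, 20.9 and 40.5 CPM at low Pi, against 5.54, 8.66 and 17.8 CPM at high Pi (1.20 ± 0.18, adjusted p = 4.46e-08). CDKB1;1 (AT3G54180) rose by 0.82 ± 0.25 (adjusted p = 0.00377) and CDKB1;2 (AT2G38620) by 0.63 ± 0.27 (adjusted p = 0.0436), while CDKB2;1 (AT1G76540) was at 0.24 ± 0.17. Per kilobase the median of CDKB2;2 was 15.0 at low Pi, against 6.22 at high Pi, and that of CDKA;1 was 31.2 at low Pi, against 40.7 at high Pi.

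Of the CDK inhibitors, which restrain cyclin-bound kinases, 2 of the 4 tested rose. KRP2 (AT3G50630) had 7.31, 10.9 and 14.4 CPM at low Pi, against 3.63, 7.80 and 10.7 CPM at high Pi (0.56 ± 0.17, adjusted p = 0.00384). SIM (AT5G04470), which promotes endoreduplication in trichomes, rose by 0.33 ± 0.14 (adjusted p = 0.0415), although its group medians were alike at 27.5 CPM at low Pi and 27.9 CPM at high Pi. Its call was lost without the 4 libraries that stood apart. KRP1 (AT2G23430) was at 0.05 ± 0.16 and SMR1 (AT3G10525) at -0.24 ± 0.15. Both SMR genes known to respond to DNA damage were near the detection limit. SMR5 had 0, 1.27 and 3.85 CPM at low Pi (76 counts in 10 libraries), against 0, 0.0996 and 1.42 CPM at high Pi (15 counts). SMR7 had 0.148, 0.916 and 1.56 CPM at low Pi (40 counts), against 0, 0.351 and 0.667 CPM at high Pi (13 counts), and no test was made for either.

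In mitosis and cytokinesis 4 of 5 genes rose. AUR2 (AT2G25880), an Aurora kinase, had 3.92, 6.30 and 17.5 CPM at low Pi, against 2.25, 3.79 and 7.03 CPM at high Pi (0.83 ± 0.21, adjusted p = 0.000582). PLEIADE (AT5G51600), a microtubule-bundling protein of the cell plate array, rose by 0.67 ± 0.21 (adjusted p = 0.00493). HINKEL (AT1G18370), a kinesin of that array, rose by 0.65 ± 0.21 (adjusted p = 0.00653), and KNOLLE (AT1G08560), the syntaxin of the cell plate, by 0.42 ± 0.17 (adjusted p = 0.0382). AUR1 (AT4G32830) was at 0.46 ± 0.20, with an adjusted p just above the threshold, and was not called.

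All 4 APC activators rose. These proteins direct the APC, which destroys mitotic cyclins. CCS52A2 (AT4G11920), which acts in meristem maintenance and endoreduplication, had 6.08, 8.43 and 12.9 CPM at low Pi, against 2.69, 4.09 and 9.25 CPM at high Pi (0.98 ± 0.16, adjusted p = 4.91e-07). Every low-Pi library stood above the high-Pi median. CCS52A1 (AT4G22910) rose by 0.40 ± 0.15 (adjusted p = 0.0241). The mitotic activators CDC20.1 (AT4G33270) and CDC20.2 (AT4G33260) rose by 0.54 ± 0.20 (adjusted p = 0.0173) and 0.63 ± 0.21 (adjusted p = 0.00964), but their transcripts are 97.0% identical over 1366 bases, so reads may have been lost or exchanged between them. CDC20.1 was not called without the 4 libraries that stood apart.

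DNA replication held the largest changes, with 9 of 12 genes higher and 1 lower. CDT1A (AT2G31270), which loads the helicase at origins, had 5.19, 12.3 and 27.2 CPM at low Pi, against 3.20, 3.86 and 8.39 CPM at high Pi (1.48 ± 0.21, adjusted p = 9.72e-09). Its sign was positive in all 5 experiments, between 0.94 and 1.84. TSO2 (AT3G27060), the small subunit of ribonucleotide reductase that supplies nucleotides in S phase, had 14.8, 35.9 and 88.4 CPM at low Pi, against 10.2, 16.1 and 24.3 CPM at high Pi (1.20 ± 0.18, adjusted p = 4.36e-08), and within experiment E alone its difference was -0.24. A second small subunit gene, RNR2A (AT3G23580), was at 0.02 ± 0.13 with medians of 15.3 CPM at low Pi and 15.6 CPM at high Pi. PCNA1 (AT1G07370), a sliding clamp of the polymerases, had 3.56, 11.6 and 47.4 CPM at low Pi, against 1.99, 3.97 and 14.5 CPM at high Pi (1.35 ± 0.22, adjusted p = 3.73e-07), whereas its paralog PCNA2 (AT2G29570) was at 0.11 ± 0.15.

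All 6 MCM subunits of the replicative helicase rose, by unequal amounts. MCM6 (AT5G44635) had 3.56, 6.97 and 23.9 CPM at low Pi, against 0.996, 3.77 and 7.94 CPM at high Pi (1.41 ± 0.24, adjusted p = 8.71e-07). MCM3 (AT5G46280) rose by 1.14 ± 0.17 (adjusted p = 6.51e-08), MCM2 (AT1G44900) by 1.12 ± 0.18 (adjusted p = 2.00e-07) and MCM5 (AT2G07690) by 0.84 ± 0.18 (adjusted p = 5.34e-05). MCM7 (AT4G02060) rose by 0.76 ± 0.17 (adjusted p = 0.000139) and MCM4 (AT2G16440) by 0.40 ± 0.17 (adjusted p = 0.04). The E2F words shown above stand in MCM2, MCM4, MCM5 and MCM6 alike, MCM3 holds one farther upstream, and CDT1A, TSO2 and PCNA1 hold none in this window.

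CDC6A (AT2G29680) was the replication gene that fell, although its product loads the helicase together with CDT1. It had 2.02, 3.83 and 10.13 CPM at low Pi, against 1.87, 7.69 and 19.9 CPM at high Pi in Col-0 with SynCom, and fell by 0.89 ± 0.24 on the log2 scale (adjusted p = 0.00152). The sign was negative in 4 of 5 experiments and 0.25 in experiment E. In the mutants it fell as well: in phr1phl1 it had 1.87, 3.67 and 5.20 CPM at low Pi, against 3.07, 7.61 and 16.6 CPM at high Pi (-1.12 ± 0.35, adjusted p = 0.0167). In phr1 it had 0.838, 3.22 and 5.68 CPM at low Pi, against 2.83, 7.20 and 15.8 CPM at high Pi (-1.09 ± 0.25, adjusted p = 0.000573). It was the only one of the 55 genes called lower in all 3 genotypes.

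Among the transcription factors 4 of 5 rose. E2FC (AT1G47870), a repressing E2F, had 4.96, 7.70 and 12.9 CPM at low Pi, against 2.46, 4.30 and 7.01 CPM at high Pi (0.72 ± 0.18, adjusted p = 0.000667). E2FA (AT2G36010), an activating E2F, rose by 0.61 ± 0.21 (adjusted p = 0.0113) and DEL1 (AT3G48160), an atypical E2F that delays endoreduplication, by 0.67 ± 0.24 (adjusted p = 0.0151). Neither E2FA nor DEL1 was called without the 4 libraries that stood apart. MYB3R1 (AT4G32730) rose by 0.29 ± 0.11 (adjusted p = 0.0203). MYB3R4 (AT5G11510), an activator of mitotic genes, was at -0.10 ± 0.21.

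**Figure D2:**
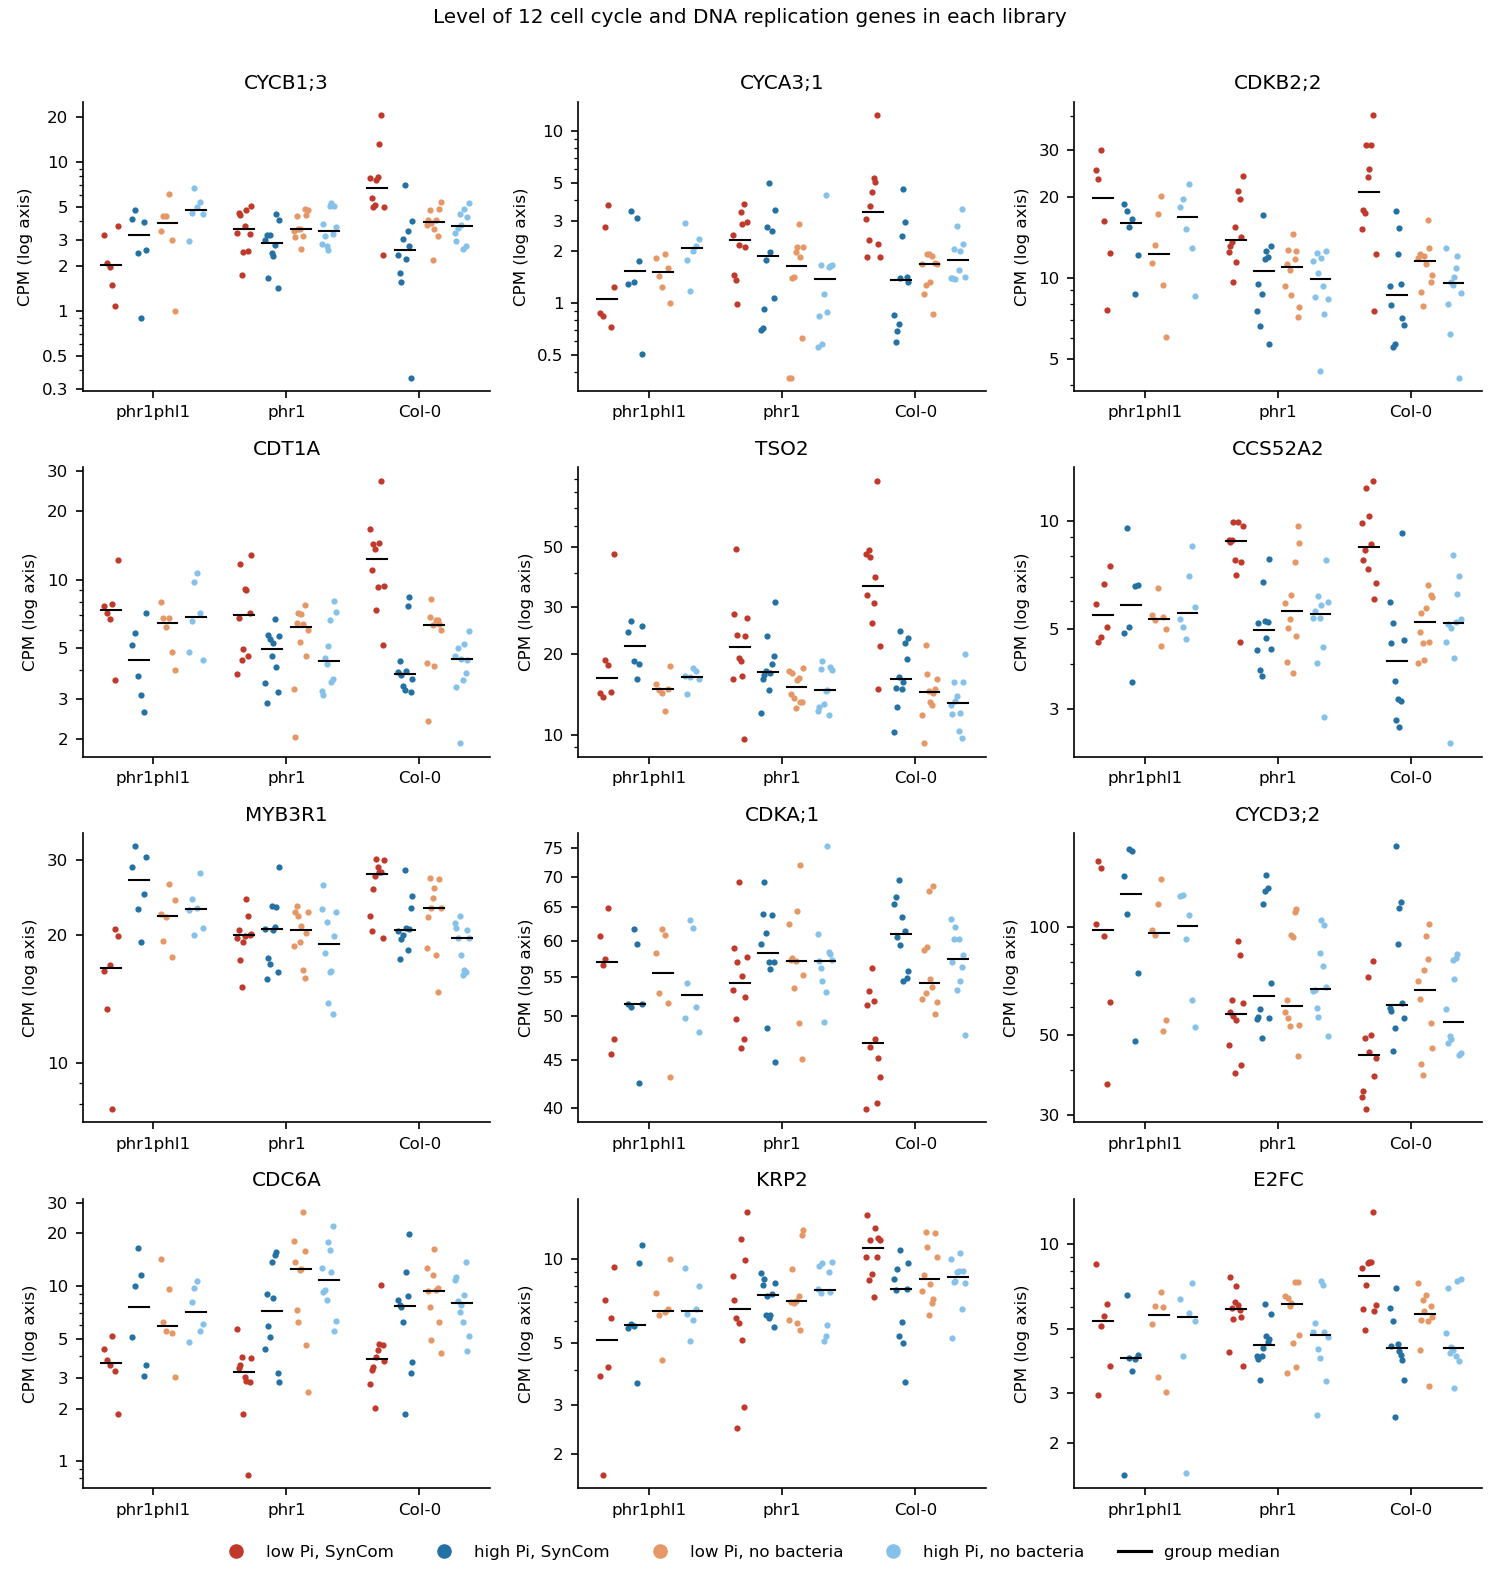
CPM (log axis) of 12 of the genes in every library, for phr1phl1 (n = 6 per group), phr1 and Col-0 (n = 10 per group each), with low Pi left of high Pi and SynCom left of no bacteria. Lines are group medians. In Col-0 with SynCom, the low-Pi median of CYCB1;3 is 6.68 CPM and its high-Pi median 2.55 CPM, those of CDKA;1 are 46.8 and 60.9 CPM, and in no panel do the low-Pi and high-Pi ranges with SynCom lie apart in any genotype.

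The spread between libraries was wide. For 0 of the 55 genes did the low-Pi and high-Pi ranges with SynCom lie fully apart, in any of the 3 genotypes. The share over all genes tested is not given here, so this count is not a trait of these genes. Of the 35 genes called higher in Col-0, 16 had the same sign in all 5 experiments and 18 in 4 of them, and of the 3 called lower 2 had it in all 5. These signs come from the libraries that gave the calls, so they are no separate support. The matching share among all genes called is not given here. Computed within experiments, the median difference of the 55 genes on the log2 scale was 0.49 in A, 0.79 in B, 0.19 in C, 0.84 in D and -0.01 in E. The number of genes above 0 was 49, 48, 37, 49 and 27 in that order. The median in experiment E was thus near 0, although CDT1A (0.94) and CYCB1;3 (1.06) were higher at low Pi there as well.

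**Figure D3:**
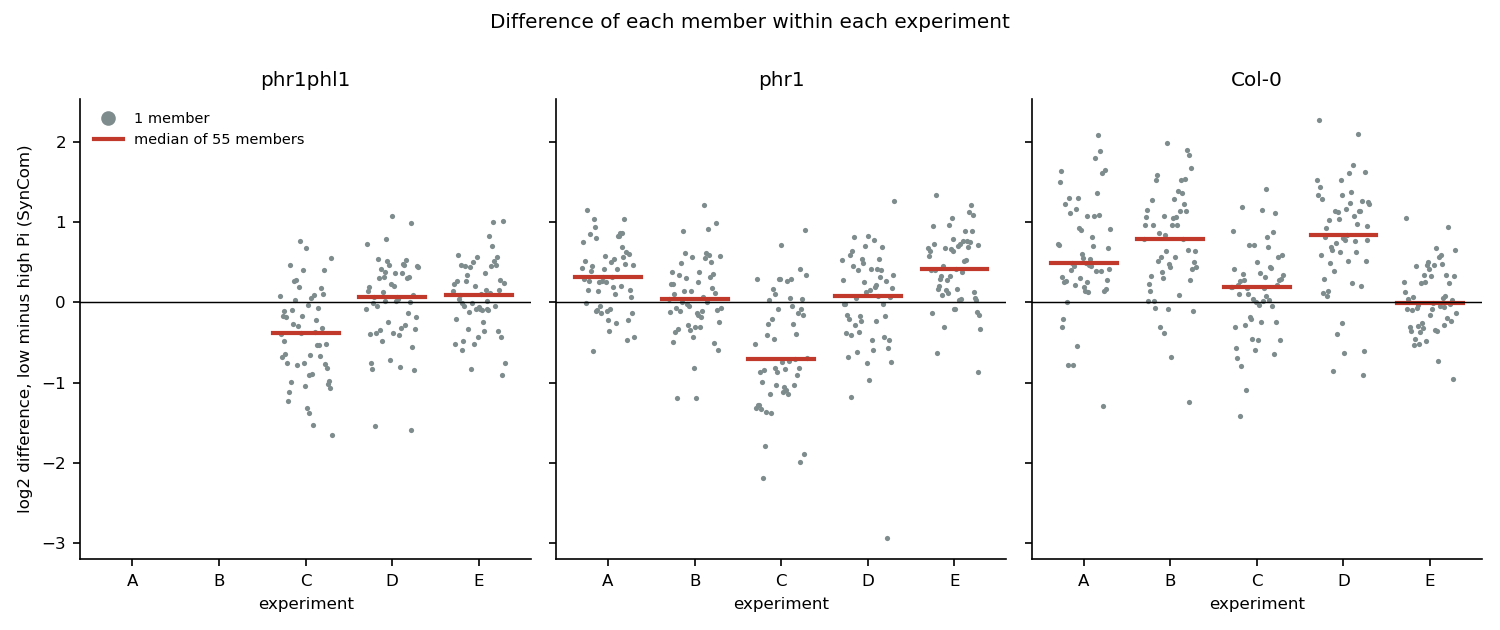
Log2 difference, low minus high Pi with SynCom, of each of the 55 genes (grey points) within each experiment (horizontal axis) in phr1phl1, phr1 and Col-0. Red lines are the median of the 55 genes. The median in Col-0 lies between 0.84 (D) and -0.01 (E), and that in phr1 between 0.42 (E) and -0.71 (C).

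Library D2 of Col-0 at low Pi with SynCom (1615792 counts) had the highest median of these genes, 1.55 on the log2 scale relative to each gene's mean, with D1 next at 0.72. The same library had the lowest summed level of 12 photosynthesis genes, 1828 CPM, with D1 next at 21810 CPM. Over the group those genes summed to 1828, 36900 and 59220 CPM at low Pi, against 53930, 64460 and 75950 CPM at high Pi. Of the 12, 11 were lower at low Pi (median log2 fold change -0.86), with within-experiment medians of -0.39 in A, -1.12 in B, -1.21 in C, -3.41 in D and 0.00 in E. All 5 genes of the differentiated root were higher (RHD6 2.25, COBL9 1.02, CASP1 0.83, EXPA7 0.68 and MYB36 0.50), and the list summed to 14.2, 90.1 and 186 CPM at low Pi, against 7.01, 47.7 and 115 CPM at high Pi.

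Of 5 root meristem genes, PLT2 (0.83) and SHR (0.33) were higher, and the list summed to 50.7, 60.7 and 120 CPM at low Pi, against 48.2, 58.7 and 78.9 CPM at high Pi. Of 4 shoot meristem genes 2 passed the filter and 0 were called by edgeR (0 also at an unadjusted p under 0.05 and by DESeq2). WUS had no count in either group. Among 4 genes of lateral root initiation LBD16 passed the filter and rose by 0.94. The part of these shifts in the levels of the cell cycle genes was not tested. Without the 4 libraries that stood apart 29 genes were higher and 4 lower, and without experiment D 21 were higher and 4 lower. The shares of all genes called in these reduced sets are not given here.

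**Figure D4:**
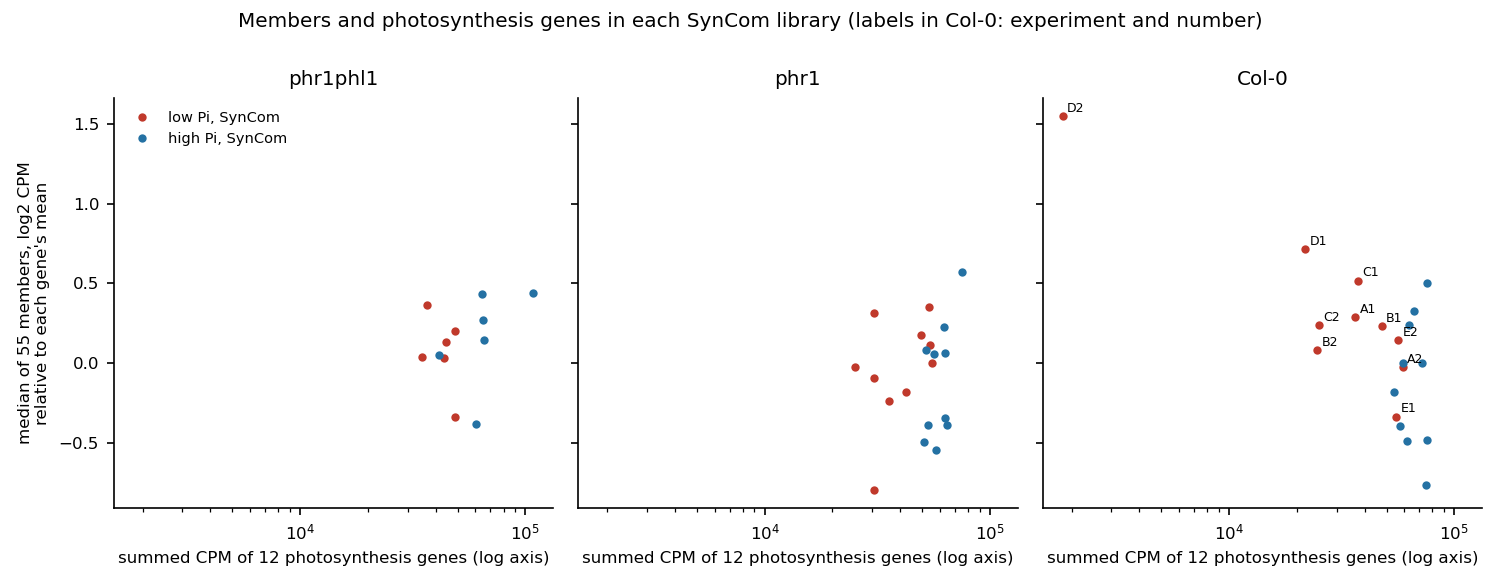
Median log2 level of the 55 genes relative to each gene's mean (vertical axis) against the summed CPM of 12 photosynthesis genes (log axis) in each SynCom library of phr1phl1, phr1 and Col-0. Red is low Pi and blue high Pi. Library D2 of Col-0 at low Pi lies alone at 1828 CPM and 1.55.

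In phr1phl1 with SynCom 1 of the 55 genes was higher and 4 were lower at low Pi (10.4% of all genes higher and 8.87% lower), and the median log2 fold change was -0.09. This genotype was present in fewer experiments than phr1 and Col-0, so its count of calls does not compare with theirs on equal terms. Counts from experiments C, D and E alone are given further below for each genotype. MYB3R1 had 7.80, 16.7 and 20.7 CPM at low Pi, against 19.2, 26.9 and 32.3 CPM at high Pi, and fell by 0.74 ± 0.15 on the log2 scale (adjusted p = 0.000147), with a negative sign in all 3 experiments. In Col-0 the same gene had 19.7, 27.8 and 30.2 CPM at low Pi, against 17.5, 20.5 and 28.5 CPM at high Pi. CYCA2;2 (AT5G11300) fell by 1.32 ± 0.44 (adjusted p = 0.0238), MYB3R4 by 0.76 ± 0.28 (adjusted p = 0.043) and CDC6A as given above. SIM rose by 0.56 ± 0.20 (adjusted p = 0.035). CYCB1;3 had 1.09, 2.04 and 3.73 CPM at low Pi, against 0.894, 3.25 and 4.77 CPM at high Pi, and was not called. No call in this comparison was made without experiment C.

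In phr1 with SynCom 8 genes were higher and 4 lower at low Pi (13.0% of all genes higher and 10.8% lower), with a median of 0.18. CCS52A2 rose by 0.73 ± 0.16 (adjusted p = 0.000387), with a positive sign in all 5 experiments, and CDKB2;2 by 0.62 ± 0.18 (adjusted p = 0.00701). The other genes called higher were the replication genes CDT1A (0.69), PCNA1 (0.60), MCM2 (0.51) and MCM3 (0.47) and the D-type cyclins CYCD1;1 (0.50) and CYCD3;3 (0.37). Besides CDC6A, SMR1 fell by 0.63 ± 0.16 (adjusted p = 0.0014), MYB3R4 by 0.69 and CYCD3;2 by 0.41. CYCB1;3 had 1.73, 3.53 and 5.07 CPM at low Pi, against 1.42, 2.87 and 4.50 CPM at high Pi, and no B-type cyclin was called. Within experiments the median of the 55 genes was 0.31 in A, 0.05 in B, -0.71 in C, 0.08 in D and 0.42 in E, so experiment E, the lowest in Col-0, was the highest in phr1.

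Photosynthesis genes were lower at low Pi in the mutants too, 5 of 12 in phr1phl1 (median -0.64) and 7 of 12 in phr1 (median -0.60). Their sums were 34840, 43990 and 48930 CPM at low Pi, against 41290, 64590 and 108200 CPM at high Pi in phr1phl1, and 25260, 38960 and 55300 CPM at low Pi, against 51100, 60110 and 75540 CPM at high Pi in phr1. Of the 5 genes of the differentiated root 1 was higher in phr1phl1, and in phr1 edgeR called 0 (1 at an unadjusted p under 0.05, 0 by DESeq2).

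Without bacteria the Pi supply gave no call among these genes. edgeR called 0 of 55 in phr1phl1, phr1 and Col-0 (0%, 0% and 0.0106% of all genes called). The counts at an unadjusted p under 0.05 were 0, 0 and 2 in that order, and DESeq2 called 0 in each. Over all 18926 genes the unadjusted counts were 1062, 981 and 319. In Col-0 without bacteria CYCB1;3 had 2.18, 3.97 and 5.39 CPM at low Pi, against 2.60, 3.70 and 5.34 CPM at high Pi, and CDT1A 2.39, 6.34 and 8.26 CPM, against 1.91, 4.46 and 5.97 CPM. SPX1 in the same libraries had medians of 17.8 CPM at low Pi and 9.86 CPM at high Pi, against 608 CPM at low Pi with SynCom. Without bacteria its log2 fold change in Col-0 was 0.95 ± 0.26 (adjusted p = 0.674). That of IPS1 was 4.45 ± 0.97 (adjusted p = 0.0817), and neither was called.

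The comparison of SynCom with no bacteria at low Pi shares its SynCom libraries with the comparison above, so the 2 are not independent. In Col-0 at low Pi 22 genes were higher and 3 lower with SynCom than without bacteria (23.8% of all genes higher and 19.4% lower), and the median of the 55 genes was 0.40. TSO2 had 14.8, 35.9 and 88.4 CPM with SynCom, against 9.29, 14.5 and 21.6 CPM without bacteria (1.45 ± 0.18, adjusted p = 2.22e-10). PCNA1 rose by 1.18 ± 0.21 (adjusted p = 4.27e-06), CDT1A by 1.15 ± 0.20 (adjusted p = 1.88e-06) and MCM2 by 0.93 ± 0.17 (adjusted p = 6.81e-06). The classes with the most calls were DNA replication (9 higher and 1 lower of 12), B-type cyclins (4 of 8 higher, all CYCB1) and APC activators (4 of 4 higher). The genes that fell were CDC6A (-1.10), CYCD3;2 (-0.46) and CDKA;1 (-0.25). Without experiment D 11 were higher and 3 lower, and the share of all genes called there is not given.

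In phr1phl1 at low Pi SynCom raised 0 genes and lowered 4 (8.06% of all genes higher and 5.58% lower): CYCA2;2 (-1.55 ± 0.42, adjusted p = 0.00751), DEL1 (-1.16), CDC6A (-1.05) and MYB3R1 (-0.47). DESeq2 also called 4, while 0 were called without experiment C, 1 without experiment D, and 1 with no experiment term or with the libraries of an experiment summed. In phr1 4 genes were higher and 2 lower (14.4% and 11.7% of all genes). CDC6A had 0.838, 3.22 and 5.68 CPM with SynCom and fell by 1.60 ± 0.24 on the log2 scale (adjusted p = 1.07e-07), SMR1 fell by 0.54, and CYCA3;1 (0.72), TSO2 (0.61), CDKB2;2 (0.57) and CCS52A2 (0.47) rose. At high Pi edgeR called 0 of 55 in phr1phl1, phr1 and Col-0 (2.25%, 4.67% and 3.67% of all genes called). The counts at an unadjusted p under 0.05 were 5, 4 and 5, and DESeq2 called 1, 0 and 0. Over all 18926 genes the unadjusted counts were 3012, 2835 and 2592 in the same order.

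At low Pi with SynCom the mutants differed from Col-0 in these genes. In phr1phl1 3 were higher and 20 lower than in Col-0 (17.2% of all genes higher and 18.8% lower), and the median of the 55 genes was -0.42. In phr1 2 were higher and 18 lower (11.7% and 13.4% of all genes), and the median was -0.41. CYCB1;3 had the smallest adjusted p in both, at -1.75 ± 0.31 in phr1phl1 (adjusted p = 3.93e-06) and -1.01 ± 0.22 in phr1 (adjusted p = 0.000448). Its counts were low, at 3 to 12 per library in phr1phl1, 6 to 34 in phr1 and 16 to 48 in Col-0. In phr1phl1 DEL1 had 0.293, 0.963 and 3.16 CPM, against 2.37, 3.15 and 12.0 CPM in Col-0 (-1.83 ± 0.34, adjusted p = 1.02e-05), and MYB3R1 was lower by 0.71 ± 0.13 (-0.71, adjusted p = 1.60e-05). In phr1 TSO2 was at -0.75 ± 0.18 (adjusted p = 0.000833), CYCB1;4 at -0.79 ± 0.19 (adjusted p = 0.0015) and MCM3 at -0.65 ± 0.17 (adjusted p = 0.0025).

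CYCD3;2 was higher in both mutants, at 0.78 ± 0.14 in phr1phl1 (adjusted p = 1.04e-05) and 0.36 ± 0.12 in phr1 (adjusted p = 0.0234), as was CDKA;1 (0.24 and 0.20). Both are genes that fell at low Pi in Col-0, and the mutant comparisons use the same Col-0 libraries. CYCD3;1 was higher in phr1phl1 (0.54). Of the replication genes 7 of 12 were lower in phr1phl1 and 8 of 12 in phr1. Of the 20 genes lower in phr1phl1, 13 had that sign in all 3 experiments. Of the 18 lower in phr1, 3 had it in all 5 and 14 in 4. The same libraries gave these calls and signs, so the signs are no separate support.

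The experiments differed widely in this comparison. The median of the 55 genes within experiments was -0.32 in C, -0.92 in D and 0.04 in E for phr1phl1, and -0.28 in A, -0.49 in B, -0.67 in C, -0.89 in D and 0.32 in E for phr1. In phr1 31 genes were called without experiment E and 5 without experiment D. In phr1phl1 11 were called without experiment D. The shares of all genes called in these reduced sets are not given here. No photosynthesis gene was called in either mutant by edgeR (0 at an unadjusted p under 0.05 and 0 by DESeq2 in each), and 11 of 12 fold changes were above 0. Of the 5 genes of the differentiated root 3 were lower in each mutant (median of the list -1.61 in phr1phl1 and -0.62 in phr1).

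In the other conditions the mutants gave no call among these genes by edgeR. At high Pi with SynCom, 0.106% of all genes were called in phr1phl1 and 0.0951% in phr1, and 13 and 0 of the 55 were at an unadjusted p under 0.05. At low Pi without bacteria 0.0634% and 0.0581% of all genes were called, and 2 and 0 of the 55 were under 0.05. At high Pi without bacteria 0.0793% and 0.0581% of all genes were called, and 15 and 3 of the 55 were under 0.05. Over all 18926 genes the unadjusted count in phr1phl1 was 2541 at high Pi without bacteria and 1589 at high Pi with SynCom. In phr1 it was 704 and 752. At low Pi without bacteria it was 703 in phr1phl1 and 277 in phr1. In phr1phl1 the fold change against Col-0 at high Pi was above 0 for 48 of the 55 genes without bacteria (median 0.30, against 0.02 over all genes) and for 40 with SynCom (median 0.19). All 8 B-type cyclins were above 0 in both by the fitted model, which also draws on Col-0 libraries of experiments A and B. Taken within experiments C, D and E, all 8 stayed above 0 without bacteria. With SynCom the B-type cyclin AT4G37490 was below 0 in each (-0.05 in C, -0.11 in D and -0.22 in E). Only AT2G26760 and AT1G76310 were above 0 in each with SynCom, and the other B-type cyclins had mixed signs. The share of all genes above 0 is not given here. Within experiments the median of the 55 genes without bacteria was 0.20 in C, 0.40 in D and 0.26 in E. With SynCom that median was 0.16 in C, 0.0076 in D and -0.00044 in E. DESeq2 called 1 of the 55 in phr1phl1 at high Pi without bacteria and 0 in the others.

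Differences of differences were tested directly. In Col-0 the effect of Pi differed between SynCom and no bacteria for 18 of the 55 genes, 15 toward a larger rise and 3 toward a larger fall with SynCom (15.4% and 13.7% of all genes). The interaction was 1.47 ± 0.34 for MCM6 (adjusted p = 0.000583), 1.12 ± 0.26 for TSO2 (adjusted p = 0.000535), 1.10 ± 0.25 for MCM2 (adjusted p = 0.000532) and -0.82 ± 0.17 for CYCD3;2 (adjusted p = 0.00019). CDKA;1 (-0.35) and CDC6A (-1.02) were the other negative ones. Of the 8 positive replication genes 5 were MCM subunits. The count of 18 was 10 without experiment A and 4 with experiments C, D and E alone, where the shares of all genes called are not given. In phr1phl1 only MYB3R1 was called (-0.67 ± 0.21, adjusted p = 0.0443, with 2.38% of all genes positive and 1.81% negative), and in phr1 only CDC6A (-1.03 ± 0.33, adjusted p = 0.0447, with 3.51% and 2.0%). Neither was called without the 4 libraries that stood apart.

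The effect of Pi with SynCom differed between phr1phl1 and Col-0 for 19 genes, 18 with a smaller or reversed value in the mutant and 1 with the opposite difference (8.48% of all genes negative and 7.81% positive). MYB3R1 had the smallest adjusted p (-1.03 ± 0.18, adjusted p = 3.92e-05), and it is the gene that rose in Col-0 and fell in the mutant. CYCB1;3 was at -1.92 ± 0.43 (adjusted p = 0.00108), with values between -2.14 and -1.56 in the 3 experiments. TSO2 (-1.26 ± 0.30, adjusted p = 0.00219) and CDC20.2 (-1.40 ± 0.36, adjusted p = 0.00423) had the opposite sign in experiment E, at 0.51 and 0.64. CDKA;1 was the positive one (0.43 ± 0.11, adjusted p = 0.00549). With experiments C, D and E alone, the experiments that hold all 3 genotypes, 3 genes were called and all were negative. Between phr1 and Col-0 the difference was called for CYCB1;4 (-0.99 ± 0.29, adjusted p = 0.0441) and TSO2 (-0.86 ± 0.26, adjusted p = 0.046), against 1.70% of all genes negative and 0.967% positive. Leaving out experiment E gave 16 negative calls, and leaving out any other experiment, or the 4 libraries that stood apart, gave 0. The shares of all genes called in these reduced sets are not given.

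A list of 40 further cell cycle genes was examined, of which 34 passed the filter on low counts. In Col-0 with SynCom 19 were higher and 1 lower at low Pi (median 0.41, with 27.2% of all genes higher and 22.2% lower). Those with the largest log2 fold changes, named after their values were seen, were KRP7 (1.58), a CDK inhibitor, ORC6 (1.55), a subunit of the origin recognition complex, MCM10 (1.24) and CDT1B (1.18), of replication initiation, and SMR3 (0.99), a CDK inhibitor. RBR1, the retinoblastoma protein that holds E2F factors inactive, rose by 0.54 (adjusted p = 7.49e-06). KRP4 was the gene that fell (-0.55). In phr1phl1 3 of the 34 were higher and in phr1 1 was, in comparisons where 10.4% and 13.0% of all genes were called higher. RBR1 was among the genes called higher in both mutants (0.55 in phr1phl1 and 0.49 in phr1). Of 5 genes of the DNA damage response, BRCA1 (0.56), PARP2 (0.51) and SOG1 (0.31) rose in Col-0.

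Several counts are uncertain because, per the labels, the libraries were prepared without marking the strand. An annotated gene on the opposite strand overlaps AUR2 over 877 bases, CYCD6;1 over 847, KNOLLE over 464, MCM7 over 437, SMR1 over 375, SIM over 338, DEL1 over 307, AUR1 over 290, CDKB1;2 over 281, PCNA2 over 279, SMR5 over 266, CYCD3;2 over 220, MYB3R1 over 214, CDKB2;2 over 192, RNR2A over 153, CYCD1;1 over 144 and CDC6A over 123, and reads from the 2 strands cannot be told apart there. Shorter overlaps or overlaps on the same strand touch CCS52A2, CDKB1;1, E2FA, CYCA2;3, CDKB2;1, CYCD3;1 and TSO2. CYCB1;2 and CYCB2;3 each share a transcript stretch with another locus (97.7% identity over 390 bases with AT1G34460, and 97.3% over 583 bases with AT1G20590). The values of these genes may include reads of the other locus.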

How the data were processed

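The authors deposited raw read counts per locus for 104 libraries of poly(A) RNA from whole seedlings. Per the submitters' processing notes, CASAVA 1.8, cutadapt 1.3, TopHat2 2.1.1, HTSeq 0.6.1p1 and the TAIR10 genome were used. Their settings are not known here. Of 27206 loci, 1788 had no count in any library. Groups were taken from the labels, which name 5 independent experiments with 2 libraries per group in each. Whether the 2 came from separate cultures is not given, so p-values may in part measure technical spread. Over 52 such pairs the chi-square per degree of freedom was at least 1.98, more than counting error alone gives, so none was counted as a duplicate.

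Counts were tested with edgeR 4.0.16 (limma 3.58.1, R 4.3.3) by the quasi-likelihood test, with TMM scaling, edgeR's default filter on low counts over the 12 groups and a model of group plus experiment fitted to all libraries. All 25 contrasts were adjusted by Benjamini-Hochberg over the 18926 loci tested, each contrast on its own, with a threshold of 0.05. Log2 fold changes are given with a standard error derived from the F statistic. CPM uses TMM-scaled library sizes, and log2 CPM a prior count of 2. The scripts were tested on simulated data. Depths were 955174 to 9550846 counts per library.

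Within-experiment values are differences of mean log2 CPM. Libraries stood apart if they held under 1000000 counts or had a residual SD over 0.65. Alternatives were RLE scaling, DESeq2 1.42.0, no filter, no experiment term, a replicate block, libraries summed per experiment, leaving out each experiment, leaving out the libraries that stood apart, and keeping only experiments C, D and E. For the alternatives only counts among the genes described are given, without the share over all genes.

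The genes given in detail were, in each class, the up to 3 with the smallest adjusted p between low and high Pi in Col-0 with SynCom, those called against the majority, those removed by the filter, and in each other contrast the up to 4 called genes with the smallest adjusted p. Other genes of the 58 were named to complete their class. The genes, the further lists and the tests were chosen with earlier results of these data known. Promoters were cut from TAIR10.1, all 58 loci being found there by locus identifier. The count table holds no coordinates, so none was converted. Genes were called near-identical from 95% identity over at least 100 bases.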

Additional observations from a re-analysis of the deposited data

Results flagged for a closer look

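In 8 of 132 pairs of a gene and a group, 1 library stood far from the others by Dixon's test, and chance alone gives about 1 in 20. Library D2 of Col-0 at low Pi with SynCom was the highest of its group for 4 genes: CDT1A at 27.2 CPM (next 16.7), E2FC at 12.9 CPM (next 8.64), CYCA3;1 at 12.4 CPM (next 5.32) and CDC6A at 10.13 CPM (next 4.69). CDC6A is a gene that fell at low Pi, so this library lay against the direction of its group there. CCS52A2 was high in library E1 of Col-0 at high Pi with SynCom (9.25 CPM, next 5.96) and low in library D2 of phr1 at low Pi with SynCom (4.61 CPM, next 7.09). In phr1 at high Pi without bacteria CDKA;1 was high in library D1 (75.3 CPM, next 60.9) and CYCA3;1 in library C2 (4.23 CPM, next 1.68).

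The other results stand here because the effect of Pi was tested and differed between bacterial treatments or genotypes, in edgeR's quasi-likelihood test with Benjamini-Hochberg adjustment. Between SynCom and no bacteria in Col-0 the differences on the log2 scale were 1.47 for MCM6, 1.12 for TSO2, 1.10 for MCM2 and -0.82 for CYCD3;2. Within single genotypes they were -0.67 for MYB3R1 in phr1phl1 and -1.03 for CDC6A in phr1. Between phr1phl1 and Col-0 with SynCom they were -1.92 for CYCB1;3, -1.40 for CDC20.2, -1.26 for TSO2 and -1.03 for MYB3R1. In experiment E alone CDC20.2 (0.64) and TSO2 (0.51) had the opposite sign. Between phr1 and Col-0 the differences were -0.99 for CYCB1;4 and -0.86 for TSO2, and neither was called when experiment A, B, C or D was left out. Without the libraries that stood apart, neither these nor the differences within single mutants were called.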

How the results depend on the processing

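No fold change of the 68 named results changed sign under any alternative. RLE scaling lost none of their calls and DESeq2 none, while DESeq2 added CYCA2;2 at low against high Pi in Col-0. Leaving out experiments A, B, C, D and E lost 11, 9, 15, 22 and 3 of them, experiments C, D and E alone lost 27, no experiment term 18, summed libraries 11, the libraries that stood apart 8, and no filter 5. Under the replicate block no named call was lost, and 38 genes were called between low and high Pi in Col-0, 11 in phr1 (12 without the block) and 5 in phr1phl1. With SynCom against no bacteria in Col-0 at low Pi 24 were called (25 without it). Libraries of different groups with the same number in an experiment correlated at -0.03 on average in their residuals, and those with another number at -0.06. The gap was widest in experiment E (-0.012 against -0.072) and reversed in B (-0.074 against -0.07). Averages this near each other do not settle whether libraries of 1 number shared more than the number.

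Counts of genes called moved by over 1.5 times as follows, and the cause was not tested. The shares of all genes called under each alternative are not given. A general change in calls is therefore not separated from a change in these genes. With experiments C, D and E alone, low against high Pi with SynCom gave 3 in phr1phl1, 4 in phr1 and 17 in Col-0. SynCom against no bacteria at low Pi gave 3 in phr1, mutant against Col-0 at low Pi with SynCom gave 15 in phr1phl1 and 3 in phr1, and the interaction of Pi with SynCom gave 4 in Col-0 and 0 in either mutant. The interaction of genotype with Pi gave 3 in phr1phl1 and 0 in phr1. With no experiment term, low against high Pi gave 1 in phr1phl1 and 5 in phr1, SynCom against no bacteria gave 1 and 3, phr1 against Col-0 gave 10, phr1phl1 against Col-0 at high Pi without bacteria gave 1, the interaction of Pi with SynCom gave 0 in either mutant, and that of genotype with Pi 7 in phr1phl1 and 0 in phr1. With summed libraries, low against high Pi gave 2 and SynCom against no bacteria 1 in phr1phl1, phr1 against Col-0 gave 13, the interaction of Pi with SynCom 0 in either mutant, and that of genotype with Pi 9 in phr1phl1 and 0 in phr1. Without a filter the interaction of Pi with SynCom gave 0 in either mutant and that of phr1 with Pi 0. Without the libraries that stood apart, low against high Pi gave 8 in phr1phl1, and the interactions in phr1 gave 0. DESeq2 gave 1 for SynCom against no bacteria at high Pi in phr1phl1, 1 for phr1phl1 against Col-0 at high Pi without bacteria, and 5 for the interaction of phr1 with Pi.

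Leaving out 1 experiment at a time, low against high Pi with SynCom gave 0 to 9 in phr1phl1, 6 to 15 in phr1 and 25 to 41 in Col-0, and SynCom against no bacteria at low Pi 0 to 4, 4 to 7 and 14 to 31. Mutant against Col-0 at low Pi with SynCom gave 11 to 25 in phr1phl1 and 5 to 31 in phr1. The interaction of Pi with SynCom gave 0 to 2 in phr1phl1, 0 to 1 in phr1 and 10 to 19 in Col-0, and that of genotype with Pi 2 to 24 in phr1phl1 and 0 to 16 in phr1. CYCA2;1, SMR5 and SMR7 were removed by the filter on low counts and have no result here, and their 13 to 76 counts over the 10 libraries of a Col-0 group with SynCom leave their levels imprecise.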
